A study of Mus musculus with 18 samples.

Results

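The wild-type (WT) hippocampus of the mouse at P45, postnatal day 45, was compared with the WT medial ganglionic eminence (MGE) at E13.5, an embryonic age in days, over all expressed genes. The libraries were chosen by sample label alone, and they are 6 of the 18 libraries of the series, 3 from each tissue. All animals were C57BL/6. The series as a whole set Chd2+/- mice (HET) beside WT mice in MGE and cortex at E13.5 and in hippocampus at P45, with 3 libraries in each of 6 groups. Tissues were dissected, total RNA was taken up in Trizol, and poly(A)-selected libraries were sequenced. The 6 libraries held 30210529 to 38802765 counts. Of 24062 lines in the table, 15395 genes passed the filter on low counts. Levels are given as CPM, the count of a gene relative to the size of its library after scaling between libraries, and every log2 difference is hippocampus minus MGE, so that a negative value is a gene higher in MGE. The labels do not say whether the 3 libraries of a group came from separate animals, and p-values then cover the spread among these libraries alone. Region, age and any collection batch differ together in this comparison and cannot be told apart. In whole tissue, fewer cells of a type and less RNA per cell cannot be told apart either.

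The MGE is a transient swelling of the ventral telencephalon. Its dividing progenitors, patterned by Sonic hedgehog and the transcription factor Nkx2-1, give rise to most Pvalb and Sst interneurons, which leave the eminence and migrate into cortex and hippocampus, as well as to cholinergic neurons and early oligodendrocyte precursors. The adult hippocampus holds the granule cells of the dentate gyrus and the pyramidal cells of the CA fields, a minority of interneurons, and the astrocytes, myelinating oligodendrocytes and microglia that appear mostly after birth. The comparison therefore sets a mature circuit beside the embryonic source of its interneurons, in tissue without the mutation.

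Most expressed genes differed between the tissues. Of the genes tested, 12878 (83.7%) differed at an adjusted p under 0.05, with 6458 (41.9%) higher in hippocampus and 6420 (41.7%) higher in MGE. Each count of list members below is to be read beside these shares. At least 2-fold apart were 4679 genes (30.4%) higher in hippocampus and 3814 genes (24.8%) higher in MGE. Larger folds were more frequent on the hippocampal side, where 1297 genes were at least 16-fold higher and 538 genes at least 64-fold, against 486 and 183 genes on the MGE side. Among all called genes, 126 had no count in MGE and 31 had none in hippocampus. The fold of such genes depends on the fit and is no bound. Genes at least 2-fold higher in hippocampus took 50.7 to 51.5% of the counts of each hippocampus library and 8.20 to 8.91% of each MGE library. Genes at least 2-fold higher in MGE took 47.8 to 48.7% of an MGE library and 10.9 to 11.2% of a hippocampus library. The median log2 difference over all genes tested was -0.0018, and the groups did not overlap in 85.7% of them. The scaling between libraries sets the bulk of genes near no difference, so this median and the near-even split follow from it in part. Every log2 difference is relative to that centre. Libraries of 1 tissue correlated at 0.988 to 0.993 in log2 CPM across genes, and libraries of different tissues at 0.663 to 0.689. When the fit asked for evidence of more than a 2-fold difference in place of any difference, 7338 genes passed.

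**Figure D1:**
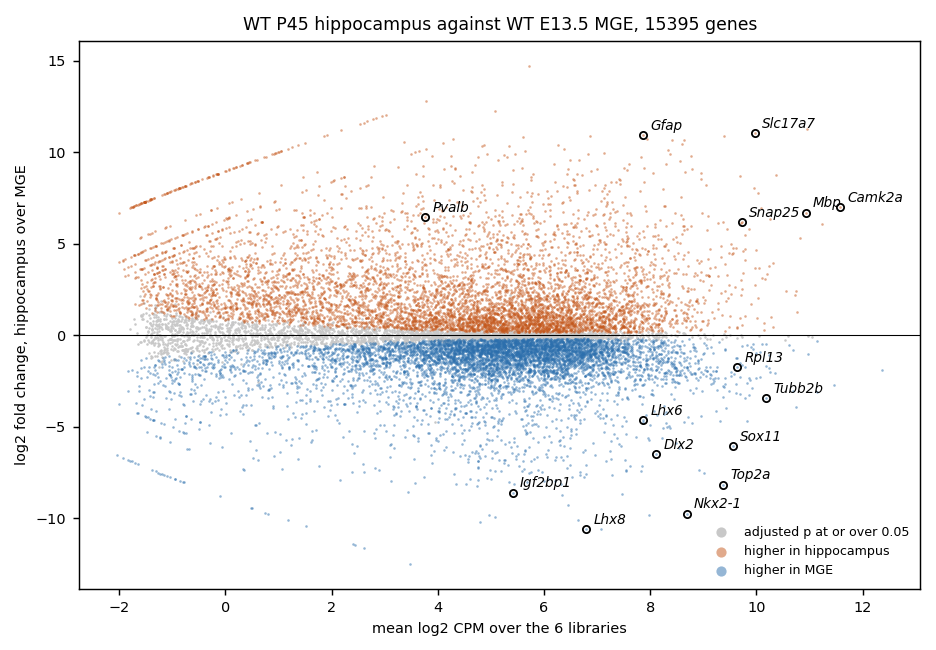
Log2 fold change of hippocampus over MGE (vertical axis) against the mean log2 CPM of the 6 libraries (horizontal axis) for all genes tested, 1 point a gene, coloured by the direction of the genes that passed an adjusted p of 0.05. Both colours fill the whole range of levels, with Camk2a at 7.01 and Lhx6 at -4.62, and the straight streaks at low levels are genes with no count in a tissue, whose plotted fold depends on the fit and is no bound.

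Both tissues carried the markers by which they are known. Camk2a, the alpha subunit of the calcium/calmodulin-dependent kinase of excitatory synapses, stood at 55.3, 44.2 and 41.1 CPM in the 3 MGE libraries and at 5582, 6321 and 6241 CPM in the 3 hippocampus libraries. All 3 hippocampus libraries lay far above the MGE libraries, a log2 difference of 7.01 ± 0.15 (SE, adjusted p = 6.52e-12). Lhx6, the LIM homeobox factor that directs MGE-derived interneurons (chr2:36081953-36105408, minus strand, GRCm38, the build of all coordinates here), stood at 358, 486 and 505 CPM in MGE and 19.7, 19.2 and 15.9 CPM in hippocampus. The groups did not overlap, and the log2 difference was -4.62 ± 0.16 (SE, adjusted p = 9.61e-10). Lhx6 was thus still read in every hippocampus library, and the 3 E13.5 WT cortex libraries held 17.2, 13.7 and 21.2 CPM of it.

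MGE WT 1 was the library most apart from its group: 4 genes lay over 4-fold above and 2 over 4-fold below both other MGE libraries, against none above and at most 2 below for the other 5 libraries. Among them Eno1b, a near-identical copy of the glycolytic enzyme gene Eno1, had 3409 counts in MGE WT 1, 31 in MGE WT 2, 22 in MGE WT 3 and 28 to 37 in the hippocampus libraries. It was chosen after its values were seen, and the cause of this difference was not tested. Without MGE WT 1, 12868 genes were called in place of 12878. In that fit, chosen after seeing the data, the count of members called in a direction moved by over 1.5 times for 2 of the 35 gene lists: adult interneurons had 2 members higher in MGE in place of 1, and glutamate receptors 1 in place of 2.

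The 10 largest differences on the hippocampal side, taken among genes whose mean log2 CPM reached 5, belonged to neurons and astrocytes for the most part. Rprml had no count in any MGE library and 98.4, 110.5 and 106 CPM in hippocampus, at least 1183-fold higher when MGE is set to a floor of 3 counts per library. Aldh1a1, a retinaldehyde dehydrogenase, had 1 count in all 3 MGE libraries together and 56.2, 72.3 and 74.4 CPM in hippocampus, a ratio with a 95% counting interval of 1252 to 275606 that covers counting error only. Ddn, which encodes the postsynaptic protein dendrin, stood at 1.33, 1.40 and 2.00 CPM in MGE and 3326, 4370.3 and 4193 CPM in hippocampus (log2 difference 11.30 ± 0.20, SE, adjusted p = 4.70e-12). These 3 genes were close to absent from the eminence and abundant in every hippocampus library. Slc17a7, Gfap, Ptk2b, Gpr37l1, Egr4, Cck and Thy1 completed the group, at log2 differences of 10.68 to 11.04. Ptk2b, a calcium-dependent tyrosine kinase, stood at 0.603, 0.702 and 0.763 CPM in MGE and 1240.2, 1386 and 1379.7 CPM in hippocampus.

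The 10 genes with the largest difference on the MGE side fell into a few kinds. Lhx8 and Nkx2-1 are regulators of the eminence, Ccnb1, Top2a and Fam64a belong to mitosis, Hba-x and Hbb-y are embryonic globins, and H19 and Igf2bp1 are transcripts of fetal growth, while Asb4 encodes an adaptor of a ubiquitin ligase. Lhx8, which directs cholinergic fate (chr3:154306294-154330659, minus strand), stood at 244, 254 and 166 CPM in MGE and 0, 0.224 and 0.183 CPM in hippocampus (log2 difference -10.60 ± 0.38, SE, adjusted p = 4.38e-08). H19, an imprinted noncoding RNA, stood at 199.6, 293 and 316 CPM in MGE and 0.102, 0.288 and 0.122 CPM in hippocampus (log2 difference -10.59 ± 0.32, SE, adjusted p = 2.62e-09). Asb4 stood at 193, 189 and 139.5 CPM in MGE and 0.271, 0.288 and 0.274 CPM in hippocampus (log2 difference -9.27 ± 0.20, SE, adjusted p = 1.67e-11). No hippocampus library reached 0.3 CPM for any of these 3 genes.

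The regulators of MGE and ventral telencephalon identity were mostly lower in hippocampus. Of 31 regulators tested, 24 were higher in MGE, 2 were higher in hippocampus and 5 did not pass, with a median log2 difference of -4.63 against -0.0018 over all genes. Their summed level was 5504 ± 567 CPM (SD, n = 3) in MGE and 1014 ± 20.1 CPM in hippocampus. Nkx2-1, which specifies the eminence (chr12:56531958-56536908, minus strand), stood at 778, 827 and 863 CPM in MGE and 0.915, 1.15 and 0.823 CPM in hippocampus (log2 difference -9.73 ± 0.13, SE, adjusted p = 1.75e-12). Isl1, a LIM factor of striatal and cholinergic neurons, fell from 47.7, 62.8 and 55.8 CPM to 0.0678, 0 and 0.0610 CPM (log2 difference -10.22 ± 0.27, SE, adjusted p = 3.78e-11). Both were close to 0 in every hippocampus library. Dlx2, a homeobox factor that promotes GABAergic fate and migration, was not: it stood at 422, 641 and 584 CPM in MGE and 6.44, 6.69 and 5.03 CPM in hippocampus (log2 difference -6.50 ± 0.20, SE, adjusted p = 1.46e-09).

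Not all of the list followed this direction. Olig1, shared by ventral progenitors and oligodendrocytes, stood at 17.3, 15.5 and 23.6 CPM in MGE and 218, 229 and 203 CPM in hippocampus (log2 difference 3.53 ± 0.15, SE, adjusted p = 4.90e-09). Its partner Olig2 went the other way, at 227, 248 and 207 CPM in MGE and 49.2, 51.4 and 53.3 CPM in hippocampus (log2 difference -2.15 ± 0.09, SE, adjusted p = 8.76e-10). Npas1, a transcription factor of forebrain interneurons, was higher in hippocampus, at 23.5, 21.1 and 22.1 CPM against 3.84, 3.19 and 5.40 CPM (log2 difference 2.42 ± 0.18, SE, adjusted p = 1.39e-07). Maf, which acts in interneurons after they leave the cycle, overlapped between tissues, at 17.8, 33.7 and 48.9 CPM in MGE and 18.5, 22.1 and 19.3 CPM in hippocampus (log2 difference -0.74 ± 0.34, SE, adjusted p = 0.0836), and without MGE WT 1, its lowest library, the log2 difference was -1.04 with an adjusted p of 1.76e-04. Etv1, Nkx6-2 and Zeb2, chosen after their values were seen, did not pass either, with log2 differences of -0.17 to 0.17.

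**Figure D2:**
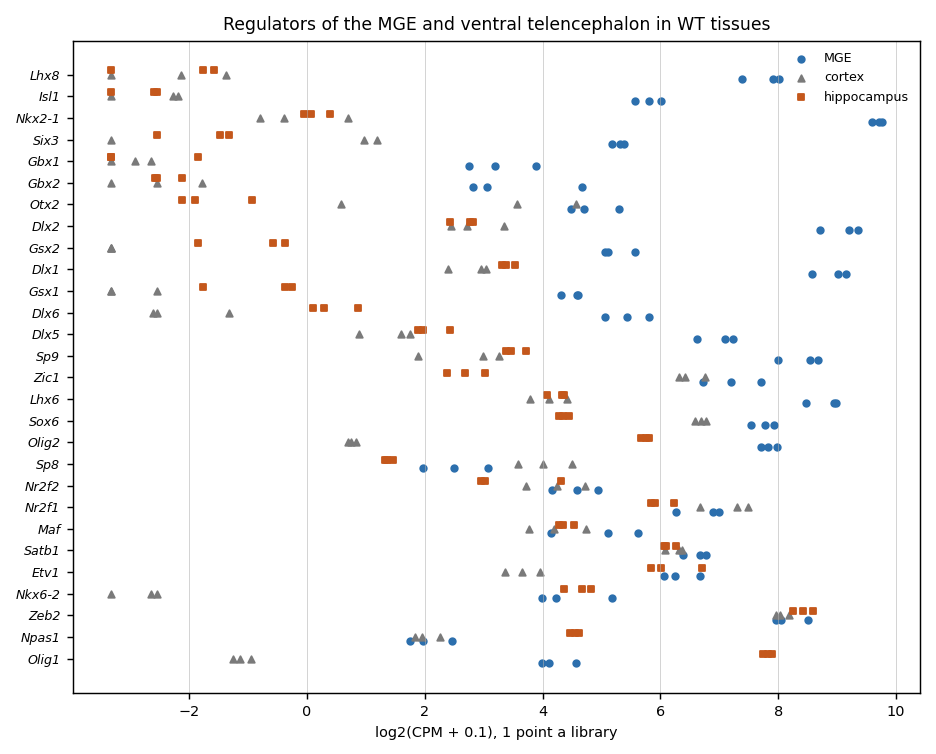
Levels of 28 of the regulators in the WT libraries of MGE (circles), E13.5 cortex (triangles) and P45 hippocampus (squares) as log2(CPM + 0.1) from 1 scaling of the 9 WT libraries, 1 point a library, ordered by the hippocampus to MGE difference. From Lhx8 to Sox6 all MGE points lie to the right of all hippocampus points, while Olig1 and Npas1 at the foot lie the other way.

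The E13.5 cortex, a neighbouring embryonic tissue, shows which of these regulators also set the MGE apart at the same age. In 1 fit of the 9 WT libraries, 3866 genes (24.6% of 15688 tested) were higher in MGE than in cortex and 4039 (25.7%) were higher in cortex. This contrast uses the same MGE libraries as the hippocampus contrast, so the values are set side by side and no overlap is drawn. Of the 31 regulators, 23 were higher in MGE than in cortex, 1 was higher in cortex and 7 did not pass. Nkx2-1 stood at 0.659, 0.474 and 1.53 CPM in the cortex libraries, a log2 difference of MGE minus cortex of 9.90 ± 0.25 (SE, adjusted p = 1.16e-09), and Dlx2 stood at 6.47, 5.37 and 10.02 CPM there (log2 difference 6.25 ± 0.27, SE, adjusted p = 1.17e-07). Olig2 was low in cortex, at 1.53, 1.58 and 1.67 CPM (log2 difference 7.17 ± 0.11, SE, adjusted p = 6.90e-12), below its level in hippocampus. The genes with the largest MGE over cortex difference that were also higher in MGE than in hippocampus included Dlx1, Dlx5, Sp9, Dlx6os1, the guidance cue Ntn1 and the vesicular monoamine transporter Slc18a2. All cortex levels given here are from 1 scaling of the 9 WT libraries. In that scaling Ntn1 stood at 200, 280 and 149 CPM in MGE and 5.48, 3.95 and 2.67 CPM in cortex (log2 difference 5.68 ± 0.30, SE, adjusted p = 5.79e-07).

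Sonic hedgehog, the ligand that keeps ventral identity, and 8 other members of its pathway were lower in hippocampus. Of 14 members, 9 were higher in MGE, beside 41.7% of all genes tested, 2 were higher in hippocampus and 3 did not pass (median -1.46). The ligand Shh stood at 35.5, 29.0 and 17.03 CPM in MGE and 1.63, 2.31 and 1.37 CPM in hippocampus (log2 difference -3.94 ± 0.32, SE, adjusted p = 2.90e-06), with groups that did not overlap. The transducer Smo stood at 161, 144 and 123 CPM in MGE and 23.1, 20.02 and 20.1 CPM in hippocampus (log2 difference -2.76 ± 0.11, SE, adjusted p = 9.65e-10), and the target Gli1 at 16.5, 24.6 and 8.23 and 2.81, 2.21 and 2.50 CPM (log2 difference -2.71 ± 0.39, SE, adjusted p = 2.45e-04). The coreceptors Gas1 and Boc were higher in hippocampus, at log2 differences of 1.10 and 1.08, from MGE levels of 7.21, 9.25 and 7.63 CPM and 9.65, 12.6 and 7.5 CPM. Gli2 overlapped between tissues (log2 difference -0.46 ± 0.37, SE, adjusted p = 0.282), and without MGE WT 3 its log2 difference was -0.78 with an adjusted p of 0.00365.

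Both lists of cell division genes were higher in MGE throughout. All 30 mitosis genes were higher in MGE, with a median of -6.86, and their summed level was 7551 ± 248 CPM (SD, n = 3) in MGE and 81.2 ± 5.08 CPM in hippocampus. All 30 genes of DNA replication and S phase were higher in MGE as well, with a median of -4.82 and sums of 5335 ± 501 and 216 ± 13.6 CPM. Against the background of 41.7% of genes called higher in MGE, no member of either list went the other way. Top2a, the topoisomerase that untangles chromosomes, stood at 1321, 1382 and 1256 CPM in MGE and 3.90, 5.25 and 4.73 CPM in hippocampus (log2 difference -8.15 ± 0.13, SE, adjusted p = 2.57e-12). Ccnb1, the mitotic cyclin, stood at 392, 349 and 320.1 CPM in MGE and 0.610, 1.02 and 0.945 CPM in hippocampus (log2 difference -8.67 ± 0.16, SE, adjusted p = 4.05e-12). Mki67, which coats mitotic chromosomes, stood at 939, 1042 and 917 CPM in MGE and 4.34, 6.15 and 7.47 CPM in hippocampus (log2 difference -7.33 ± 0.19, SE, adjusted p = 1.48e-10). The 3 hippocampus libraries thus held a low but measurable level of each.

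Within S phase the spread was wider. Rrm2, the inducible subunit of ribonucleotide reductase, stood at 456, 474 and 431 CPM in MGE and 1.73, 2.95 and 3.14 CPM in hippocampus (log2 difference -7.43 ± 0.18, SE, adjusted p = 4.70e-11). Its stable partner Rrm1 had a smaller difference, at 484, 443 and 424 and 16.9, 16.5 and 17.7 CPM (log2 difference -4.72 ± 0.09, SE, adjusted p = 4.70e-12). Pcna, the sliding clamp of the polymerase, which also serves repair, kept 39.3, 39.4 and 41.3 CPM in hippocampus against 621, 595 and 510.3 CPM in MGE (log2 difference -3.85 ± 0.10, SE, adjusted p = 2.42e-11). The 2 smallest differences of the division lists, chosen after their values were seen, were those of Cdc25b at -2.34 and Ccne1 at -0.88. Division also set the MGE above the E13.5 cortex: 30 of 30 mitosis genes (median MGE minus cortex 0.71) and 27 of 30 S-phase genes (median 0.61) were higher in MGE than in cortex, against 24.6% of all genes, with none higher in cortex.

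Promoter sequence was read for the division genes because they moved as a block. RefSeq promoters of GRCm38.p6, from 250 bases before to 50 bases after the first listed start, were matched by symbol to 24 of the 30 mitosis genes and 24 of the 30 S-phase genes. The cell cycle homology region, searched as TTTGAA or TTCGAA on both strands, lay in 20 of the 24 mitosis promoters (83.3%), in 13.1% of the promoters of the 11430 genes tested that had one, and in 19.4% of all 27025 promoters of the same length. Counting only matches that began between 50 bases before and 49 bases after the start, 19 of 24 mitosis promoters held one (79.2%) against 3.26% of genes tested. Among genes at least 16-fold higher in MGE the share near the start was 20.2% of 346 promoters, and among those at least 16-fold higher in hippocampus 2.17% of 923. CCAAT, bound by NF-Y and searched on both strands, was in 20 of the 24 mitosis promoters and in 38.3% of the genes tested. These matches are a description of the letters and show no binding. The promoters of 4 mitosis genes follow, 5′ to 3′, from 150 bases to 1 base before the start, with each match to the cell cycle homology letters in capitals, to show where the letters lie.
Top2a, GRCm38.p6 chr11:99024190-99024339, minus strand: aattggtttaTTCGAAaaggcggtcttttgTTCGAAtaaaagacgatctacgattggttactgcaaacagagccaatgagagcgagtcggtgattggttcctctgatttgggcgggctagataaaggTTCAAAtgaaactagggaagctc
Cdk1, GRCm38.p6 chr10:69352913-69353062, minus strand: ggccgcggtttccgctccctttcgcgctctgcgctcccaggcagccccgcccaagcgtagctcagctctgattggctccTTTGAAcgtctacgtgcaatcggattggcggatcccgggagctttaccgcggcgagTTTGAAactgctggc
Kif11, GRCm38.p6 chr19:37376232-37376381, plus strand: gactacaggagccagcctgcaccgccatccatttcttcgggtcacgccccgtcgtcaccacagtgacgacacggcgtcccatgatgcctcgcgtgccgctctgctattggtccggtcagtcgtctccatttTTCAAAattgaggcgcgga
Cdc20, GRCm38.p6 chr4:118437344-118437493, minus strand: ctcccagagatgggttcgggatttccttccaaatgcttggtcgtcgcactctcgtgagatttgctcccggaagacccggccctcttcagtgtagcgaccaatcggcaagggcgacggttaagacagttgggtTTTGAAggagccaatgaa

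In these promoters the last match began 23 bases before the start in Top2a, 15 in Cdk1, 19 in Kif11 and 18 in Cdc20. Cdk1, the mitotic kinase, chosen after its values were seen, stood at 235, 211 and 195 CPM in MGE and 0.847, 0.961 and 1.16 CPM in hippocampus (log2 difference -7.74 ± 0.14, SE, adjusted p = 3.19e-12), and Kif11, a spindle motor, at 387, 391 and 389.8 and 2.41, 2.63 and 3.14 CPM (log2 difference -7.15 ± 0.11, SE, adjusted p = 2.57e-12). No match was found in Ccnb1, Cenpe, Birc5 and Nusap1, which says only that these letters are not in their windows. Letters of the E2F site, TTTGGCGC, TTTGCCGC, TTTCGCGC or TTTCCCGC on both strands, lay in 8 of the 24 S-phase promoters, in 1 of the 24 mitosis promoters, in 3.85% of the genes tested and in 2.32% of all promoters. The Mcm6 and Mcm5 promoters, of subunits of the replicative helicase, are shown for the same stretch with those letters in capitals. The first run of capitals in Mcm6 is a pair of overlapping matches on opposite strands.
Mcm6, GRCm38.p6 chr1:128359706-128359855, minus strand: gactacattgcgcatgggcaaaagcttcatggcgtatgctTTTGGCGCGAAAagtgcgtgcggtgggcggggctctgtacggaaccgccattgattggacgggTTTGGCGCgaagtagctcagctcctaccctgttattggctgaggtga
Mcm5, GRCm38.p6 chr8:75109359-75109508, plus strand: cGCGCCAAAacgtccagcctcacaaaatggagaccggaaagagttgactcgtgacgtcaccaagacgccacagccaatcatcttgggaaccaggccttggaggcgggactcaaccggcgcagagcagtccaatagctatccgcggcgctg

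Most progenitor genes were lower in hippocampus. Of 23 radial glia and neural stem cell genes, 18 were higher in MGE, 4 were higher in hippocampus and 1 did not pass (median -1.88). Nes, the intermediate filament of progenitors, stood at 699, 629 and 418 CPM in MGE and 11.6, 12.1 and 11.99 CPM in hippocampus (log2 difference -5.61 ± 0.21, SE, adjusted p = 8.82e-09). Vim, another filament of radial glia, stood at 1475, 1151 and 1039.6 and 45.4, 47.9 and 48.7 CPM (log2 difference -4.69 ± 0.14, SE, adjusted p = 1.25e-10). In contrast, Slc1a3, a glutamate transporter that radial glia share with astrocytes, rose from 71.6, 88.5 and 74.5 CPM to 558, 589.7 and 586 CPM (log2 difference 2.89 ± 0.10, SE, adjusted p = 1.86e-10), and Hopx, shared with the stem cells of the adult dentate gyrus and with astrocytes, from 0.829, 0.574 and 0.286 CPM to 63.3, 70.6 and 67.7 CPM (log2 difference 6.84 ± 0.20, SE, adjusted p = 1.36e-10). Pax6, a factor of dorsal progenitors and adult neural stem cells, was low in both, at 2.31, 4.15 and 3.88 and 9.01, 8.71 and 7.53 CPM (log2 difference 1.30 ± 0.22, SE, adjusted p = 2.15e-04).

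The Notch pathway, which holds progenitors back from differentiation, had 15 of 20 members higher in MGE, 3 higher in hippocampus and 2 that did not pass (median -2.07). Among ligands, Dll3 stood at 90.4, 106 and 99.0 CPM in MGE and 2.41, 2.40 and 2.78 CPM in hippocampus (log2 difference -5.28 ± 0.11, SE, adjusted p = 7.00e-12). The receptor Notch1 stood at 518, 550.5 and 381 and 51.7, 54.1 and 47.0 CPM (log2 difference -3.25 ± 0.14, SE, adjusted p = 4.98e-09), and the target Hes5 at 165, 149 and 125 and 10.1, 8.46 and 7.08 CPM (log2 difference -4.10 ± 0.15, SE, adjusted p = 1.48e-09). The ligand Jag2 (1.43), the target Hey1 (0.69) and the Notch antagonist Numbl (1.93) were higher in hippocampus. Numbl stood at 67.2, 65.4 and 67.4 CPM in MGE and 251, 257 and 256 CPM in hippocampus, with a narrow spread in both.

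Most genes of embryonic timing and fetal growth were lower in hippocampus. Of 13 tested members of a list of 15, 11 were higher in MGE, 1 was higher in hippocampus and 1 did not pass (median -3.01). Hmga2, a chromatin protein of young stem cells, stood at 37.4, 16.4 and 11.2 CPM in MGE and had no count in hippocampus, at least 224-fold lower against a floor of 3 counts per library, a bound that was 143-fold without MGE WT 1 (an alternative added after seeing the data). Igf2bp1, an RNA-binding protein of fetal growth, stood at 102.1, 84.3 and 66.6 CPM and 0.508, 0.128 and 0.0305 CPM (log2 difference -8.60 ± 0.41, SE, adjusted p = 3.37e-07). MGE WT 1 was the highest of the MGE libraries for both genes. Mycn stood at 125, 136 and 119 CPM in MGE and 11.5, 12.2 and 10.4 CPM in hippocampus (log2 difference -3.48 ± 0.09, SE, adjusted p = 3.78e-11). Trim71, another heterochronic gene, went the other way at a low level, from 0.301, 0.128 and 0.191 CPM to 3.08, 2.88 and 1.43 CPM (log2 difference 3.51 ± 0.45, SE, adjusted p = 1.77e-05). Lin28a and Hoxb2 did not pass the filter on low counts.

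Imprinted genes, expressed from 1 parental allele and often active in fetal growth, were divided. Of 23, 15 were higher in MGE, 5 were higher in hippocampus and 3 did not pass (median -0.79). Besides H19, Dlk1, a Notch-like ligand, stood at 80.9, 59.5 and 69.6 CPM in MGE and 1.39, 0.448 and 0.0610 CPM in hippocampus (log2 difference -6.83 ± 0.50, SE, adjusted p = 1.19e-05). Nnat, which encodes neuronatin, stood at 3119, 3039 and 3483 CPM in MGE and 326, 157 and 150.4 CPM in hippocampus (log2 difference -3.93 ± 0.34, SE, adjusted p = 3.00e-05), where hippocampus WT 1 was about 2 times the other libraries. Meg3, the maternally expressed noncoding RNA, was higher in hippocampus, at 3009, 2880.2 and 2493 CPM against 720.4, 395 and 730.3 CPM (log2 difference 2.18 ± 0.24, SE, adjusted p = 5.64e-05). Gnas, a G protein subunit, was also higher there (log2 difference 0.67 ± 0.09, SE, adjusted p = 3.58e-05).

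Transcripts of cytosolic ribosomal proteins took a smaller share of the hippocampus. Of 76 tested, 75 were higher in MGE, none was higher in hippocampus and 1 did not pass (median -1.99), and the summed level was 49920.2 ± 2730.5 CPM (SD, n = 3) in MGE and 12999 ± 372 CPM in hippocampus. Rplp0, of the ribosomal stalk, stood at 1786, 1612 and 1727 CPM in MGE and 224, 241 and 246 CPM in hippocampus (log2 difference -2.85 ± 0.09, SE, adjusted p = 7.60e-11), and Rpsa at 1939, 1674 and 1707 and 348, 372 and 392 CPM (log2 difference -2.26 ± 0.09, SE, adjusted p = 8.15e-10). Many of these genes have near-identical processed copies in the genome, so the level of a single member is uncertain, and Rps27, the one that did not pass, stood at 0.854, 0.829 and 0.445 CPM in MGE and 0.915, 1.02 and 1.04 CPM in hippocampus. The list was also lower in MGE than in the E13.5 cortex, with 72 of 77 genes higher in cortex (median MGE minus cortex -0.51), against 25.7% of all genes. Oxidative phosphorylation did not share this direction: 29 of 76 subunits and assembly genes were higher in hippocampus, 27 were higher in MGE and 20 did not pass (median 0.03). Cox8a rose from 161, 120.5 and 134 to 363, 349 and 343 CPM (log2 difference 1.34 ± 0.10, SE, adjusted p = 2.30e-07), while Atp5g2, a gene for subunit c, fell from 297, 243 and 285 to 93.0, 96.5 and 96.1 CPM (log2 difference -1.53 ± 0.09, SE, adjusted p = 1.86e-08).

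Genes of young, growing neurons were higher in MGE, with 18 of 25 in that direction, 6 higher in hippocampus and 1 that did not pass (median -2.70). Their summed level was 20276 ± 2120.0 CPM in MGE and 4632 ± 185 CPM in hippocampus. Sox11, a factor that opens the neuronal programme, stood at 1206, 1703 and 1551 CPM in MGE and 19.9, 21.8 and 24.9 CPM in hippocampus (log2 difference -6.07 ± 0.16, SE, adjusted p = 9.66e-11). Dcx, the microtubule protein of migrating neurons, stood at 529, 601 and 773 and 18.6, 19.95 and 23.5 CPM (log2 difference -4.94 ± 0.17, SE, adjusted p = 1.43e-09), so that a low level was read in every adult library. Tuba1a stood at 4535, 4558 and 5554 and 832, 719 and 708 CPM (-2.70). Those that went the other way included Myt1l at 1.99, Ina at 0.69 and Map1b at 0.32. Nhlh2 did so at a low level, from 0.276, 0.128 and 0.413 CPM to 2.64, 3.24 and 3.29 CPM (log2 difference 3.47 ± 0.37, SE, adjusted p = 4.40e-06). In the HET libraries 3 members of the list were higher in hippocampus, and Ina and Map1b did not pass there, at adjusted p of 0.187 and 0.755. Map1b stood at 857, 1128 and 1037 CPM in MGE and 1265, 1283 and 1216 CPM in hippocampus, a small difference with groups that did not overlap (log2 difference 0.32 ± 0.10, SE, adjusted p = 0.0128).

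Interneuron migration and guidance genes had no common direction. Of 28, 14 were higher in MGE, 11 were higher in hippocampus and 3 did not pass (median -0.21), beside 41.7% and 41.9% of all genes tested. Of those higher in MGE, Cdk5r1, an activator of the kinase Cdk5 (log2 difference -0.25 ± 0.10, SE, adjusted p = 0.0384), did not pass with RLE scaling, at -0.21 with an adjusted p of 0.0911, with DESeq2, at -0.22 with an adjusted p of 0.0829, or with any library other than MGE WT 1 left out. Ntn1 was 8.54, 9.64 and 8.08 CPM in hippocampus (log2 difference -4.57 ± 0.25, SE, adjusted p = 6.53e-07), and the semaphorin Sema3f fell from 13.1, 16.2 and 23.5 CPM to 1.39, 1.15 and 0.976 CPM (log2 difference -3.91 ± 0.26, SE, adjusted p = 8.24e-08). The receptor gene Plxna2 stood at 509, 601 and 571 CPM in MGE and 160.0, 166 and 159 CPM in hippocampus (log2 difference -1.79 ± 0.08, SE, adjusted p = 2.94e-09). On the other side, the neuregulin Nrg3 rose from 2.94, 1.79 and 1.53 CPM to 44.5, 40.7 and 40.3 CPM (log2 difference 4.30 ± 0.20, SE, adjusted p = 6.70e-09), and the repellent Slit1 from 171, 165 and 196 CPM to 459, 462 and 445 CPM (log2 difference 1.36 ± 0.08, SE, adjusted p = 3.33e-08). Dab1, which carries the reelin signal into the cell, was also higher in hippocampus (log2 difference 2.12 ± 0.11, SE, adjusted p = 6.94e-09). Erbb4, the neuregulin receptor of interneurons, chosen after its values were seen, was higher in MGE, at 27.7, 39.6 and 47.6 CPM against 23.1, 21.4 and 17.6 CPM (log2 difference -0.89 ± 0.19, SE, adjusted p = 0.00200).

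For the interneurons themselves, the genes of GABA synthesis and those of mature subtypes behaved differently. Of 25 adult interneuron genes tested out of 26, 20 were higher in hippocampus, 1 was higher in MGE and 4 did not pass (median 3.14). Gad1, the larger GABA-synthesizing enzyme, stood at 177, 152 and 249 CPM in MGE and 311, 291 and 313 CPM in hippocampus (log2 difference 0.66 ± 0.16, SE, adjusted p = 0.00380), a difference of under 2-fold. Gad2, the smaller enzyme, was lower in hippocampus, at 143, 142 and 154 CPM against 208, 222 and 276 CPM (log2 difference -0.68 ± 0.11, SE, adjusted p = 8.67e-05). The vesicular GABA transporter Slc32a1, chosen after its values were seen, overlapped between tissues at 83.2, 106 and 113 CPM in MGE and 109.8, 101.6 and 90.6 CPM in hippocampus (log2 difference -0.00 ± 0.12, SE, adjusted p = 0.982). The GABA machinery was thus read at levels within 2-fold in both tissues, while Lhx6 was 24.7-fold lower in hippocampus.

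Most subtype genes were far higher in hippocampus. Sst, the somatostatin gene, chosen after its values were seen like Pvalb, stood at 4.57, 13.3 and 15.7 CPM in MGE and 210.5, 217 and 161 CPM in hippocampus (log2 difference 4.15 ± 0.44, SE, adjusted p = 1.08e-04). Pvalb, the parvalbumin gene, stood at 0.427, 0.160 and 0.286 and 29.6, 25.4 and 25.5 CPM (log2 difference 6.46 ± 0.23, SE, adjusted p = 2.56e-10). Vip had 2 counts in all MGE libraries together and 10.2, 10.5 and 7.41 CPM in hippocampus, and Lamp5 had 2 counts in MGE and 35.3, 38.5 and 43.9 CPM in hippocampus. MGE WT 1 was the lowest MGE library for Sst, and the groups did not overlap for any of these 4 genes. Cck, which pyramidal cells also express, stood at 0.201, 0.223 and 0.445 and 449, 493 and 528 CPM (log2 difference 10.74 ± 0.18, SE, adjusted p = 2.91e-12). Npy was an exception, at 32.2, 28.6 and 70.5 CPM in MGE and 39.7, 37.3 and 37.5 CPM in hippocampus (log2 difference -0.19 ± 0.34, SE, adjusted p = 0.615). MGE WT 3 held the highest Npy level of the 6 libraries, and without it the sign turned, at 0.34 with an adjusted p of 0.00717. Nxph1 was alike in this (log2 difference -0.34 ± 0.27, SE, adjusted p = 0.266): without MGE WT 3 it was 0.049 with an adjusted p of 0.749, and without MGE WT 1 it was -0.56 with an adjusted p of 0.0235.

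Nearly all genes of hippocampal excitatory neurons were higher in hippocampus. Of 28, 27 were higher in hippocampus and 1, Map3k15, did not pass (median 6.91), and the summed level was 262 ± 5.24 CPM (SD, n = 3) in MGE and 14599.7 ± 943 CPM in hippocampus. Slc17a7, the vesicular glutamate transporter of cortical and hippocampal synapses, stood at 1.06, 0.542 and 1.24 CPM in MGE and 2225, 1949 and 1857 CPM in hippocampus (log2 difference 11.04 ± 0.21, SE, adjusted p = 9.09e-12). Camk2b stood at 16.7, 15.7 and 20.6 and 1929.9, 2269.8 and 2305 CPM (log2 difference 6.94 ± 0.14, SE, adjusted p = 6.25e-12). C1ql3, a secreted synaptic protein, stood at 0.0502, 0.160 and 0.0636 and 82.1, 105 and 114 CPM (log2 difference 10.10 ± 0.25, SE, adjusted p = 5.12e-11). No MGE library approached a hippocampus library for these 3 genes. Prox1, a gene expressed in granule cells, rose from 43.6, 34.0 and 42.9 CPM to 73.8, 93.4 and 109 CPM (log2 difference 1.20 ± 0.15, SE, adjusted p = 4.31e-05). It was thus read in MGE as well and does not mark granule cells alone here. Wfs1, of CA1 pyramidal cells, rose from 7.23, 9.12 and 9.72 CPM to 179, 464 and 467 CPM (log2 difference 5.42 ± 0.45, SE, adjusted p = 2.73e-05). These 2 were chosen after their values were seen, and hippocampus WT 1 was the lowest of its group for both.

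The dorsal lineage factors that excitatory neurons pass through gave a mixed picture, with 8 of 13 tested higher in hippocampus, 3 higher in MGE and 2 that did not pass (median 2.32). Without the members that other lists also hold, such as Slc17a7, the median was 0.088. Bcl11b, a factor of deep-layer neurons and 1 of the 3 higher in MGE (log2 difference -0.51 ± 0.16, SE, adjusted p = 0.0160), did not pass without MGE WT 2, MGE WT 3 or hippocampus WT 1, at adjusted p of 0.0698, 0.0677 and 0.0683. Neurod6 stood at 0.402, 2.62 and 3.37 CPM in MGE and 239.8, 242 and 267 CPM in hippocampus (log2 difference 6.93 ± 0.52, SE, adjusted p = 1.54e-05), and Neurod2 at 0.502, 1.15 and 2.64 and 281, 281 and 314 CPM (log2 difference 7.73 ± 0.42, SE, adjusted p = 2.09e-06). In MGE, the low levels of both differed between libraries, with MGE WT 1 the lowest. The E13.5 cortex libraries held 1047, 1054 and 1201 CPM of Neurod6. Cux1, which upper-layer neurons and ventral progenitors share, was higher in MGE, at 230.4, 282 and 248 CPM against 38.8, 41.3 and 42.0 CPM (log2 difference -2.64 ± 0.09, SE, adjusted p = 2.96e-10).

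**Figure D3:**
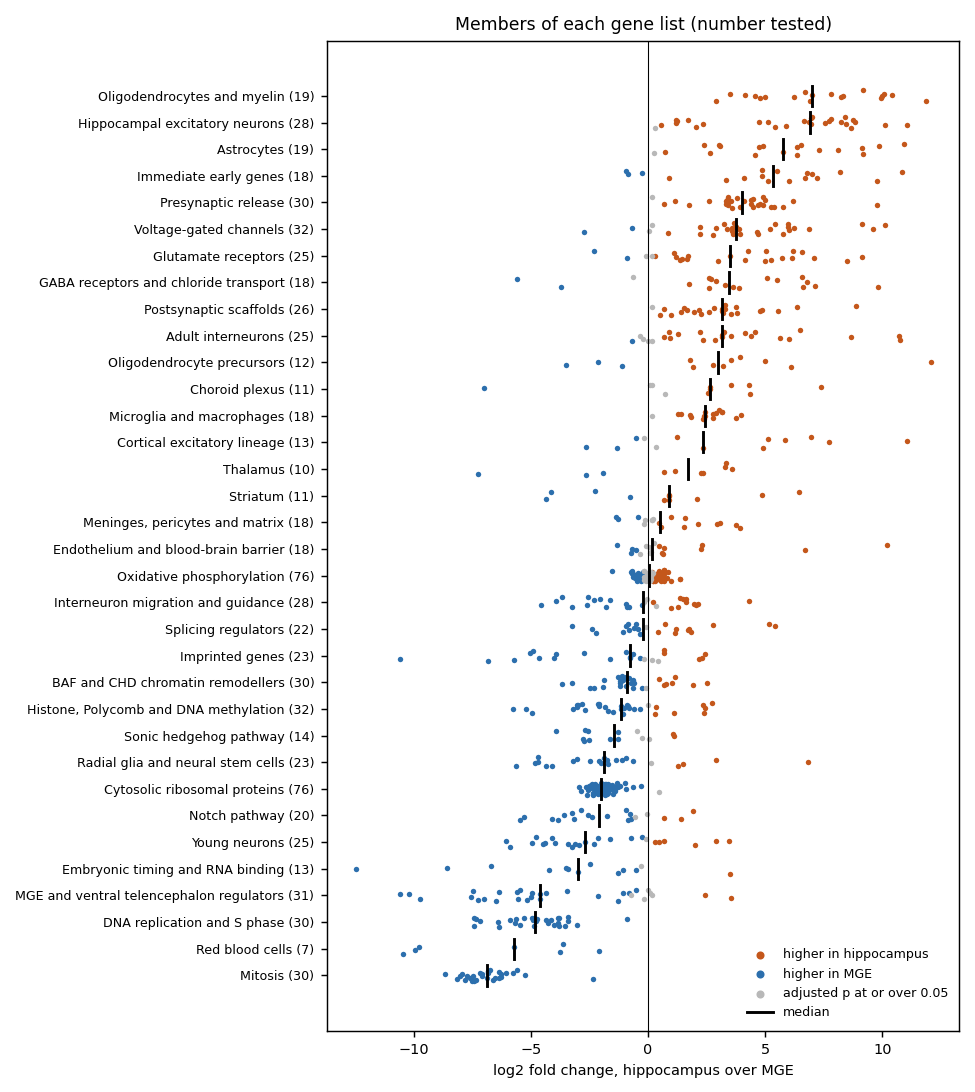
Log2 fold change of hippocampus over MGE for every tested member of 34 gene lists, 1 point a gene, with the number tested in parentheses, the median as a bar and grey for genes that did not pass an adjusted p of 0.05. The mitosis and S-phase lists lie wholly to the left, the myelin list wholly to the right at a median of 7.0, and lists such as oxidative phosphorylation, splicing regulators and migration straddle 0.

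Synaptic transmission was higher in hippocampus on both sides of the cleft. Of 30 presynaptic release genes, 29 were higher there and 1, Doc2a, did not pass (median 4.02), against 41.9% of all genes. The summed level was 961 ± 94.0 CPM in MGE and 16766 ± 969 CPM in hippocampus. Snap25, a SNARE of the plasma membrane, stood at 19.97, 19.6 and 29.3 CPM in MGE and 1837, 1534 and 1637 CPM in hippocampus (log2 difference 6.19 ± 0.18, SE, adjusted p = 6.07e-10). Syt1, the calcium sensor of release, stood at 65.4, 53.4 and 75.3 and 1561, 1386 and 1409 CPM (log2 difference 4.49 ± 0.13, SE, adjusted p = 9.66e-11). Sv2b, a vesicle protein, stood at 0.352, 0.766 and 0.477 and 554, 417 and 388 CPM (log2 difference 9.76 ± 0.25, SE, adjusted p = 3.15e-10). Snap25 and Syt1 were already read in every MGE library, while Sv2b stayed under 1 CPM there.

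Of 26 postsynaptic scaffold genes, 25 were higher in hippocampus and 1, Homer3, did not pass (median 3.16). Dlg4, the scaffold PSD-95, stood at 93.6, 100.1 and 101.7 CPM in MGE and 899, 1019 and 969 CPM in hippocampus (log2 difference 3.29 ± 0.09, SE, adjusted p = 3.15e-11). Nptx1, a pentraxin that gathers AMPA receptors, stood at 2.54, 1.63 and 2.00 and 998, 977 and 995 CPM (log2 difference 8.89 ± 0.15, SE, adjusted p = 2.86e-12). Its receptor gene Nptxr was also higher in hippocampus (log2 difference 6.37 ± 0.20, SE, adjusted p = 1.97e-09). Ppp1r9b, the spine protein spinophilin, stood at 202, 243 and 230.1 and 1928, 2046 and 1988 CPM (log2 difference 3.14 ± 0.09, SE, adjusted p = 7.86e-11), so that scaffolds covered a wide range of differences.

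Among glutamate receptors, 21 of 25 were higher in hippocampus, 2 were higher in MGE and 2 did not pass (median 3.48). Grin1, the obligatory NMDA receptor subunit, stood at 3.04, 3.35 and 7.28 CPM in MGE and 575, 641 and 612 CPM in hippocampus (log2 difference 7.08 ± 0.34, SE, adjusted p = 7.40e-07). Gria1, an AMPA receptor subunit, stood at 12.5, 15.5 and 25.4 and 1224, 1328 and 1352 CPM (log2 difference 6.20 ± 0.28, SE, adjusted p = 2.56e-07), and Gria2, which makes the channel impermeable to calcium, at 120.3, 102.2 and 126 and 858, 908 and 956 CPM (log2 difference 2.96 ± 0.10, SE, adjusted p = 1.90e-10). The kainate receptor subunit Grik3 went the other way, at 217, 260.1 and 235 CPM in MGE and 47.9, 48.0 and 46.1 CPM in hippocampus (log2 difference -2.33 ± 0.09, SE, adjusted p = 4.39e-10). All 3 MGE libraries of Grik3 were above all hippocampus libraries. Grin3b, the other member higher in MGE (log2 difference -0.89 ± 0.29, SE, adjusted p = 0.0154), did not pass without MGE WT 1, hippocampus WT 1 or hippocampus WT 2, at adjusted p of 0.0632, 0.0602 and 0.0544. Gria4, an AMPA subunit of interneurons, overlapped (log2 difference 0.15 ± 0.18, SE, adjusted p = 0.452), and without MGE WT 3 it was 0.42 with an adjusted p of 0.00411.

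Of 18 genes for GABA receptors and chloride transport, 15 were higher in hippocampus, 2 were higher in MGE and 1 did not pass (median 3.47). Gabrd, of the extrasynaptic receptors of granule cells, had 3 counts in all MGE libraries together and stood at 26.0, 29.9 and 33.3 CPM in hippocampus. Gabbr1, a subunit of the metabotropic receptor, stood at 119, 113 and 130.4 CPM in MGE and 692, 753 and 726 CPM in hippocampus (log2 difference 2.58 ± 0.09, SE, adjusted p = 1.74e-10). The 2 higher in MGE were the rare subunits Gabrq, at 6.41, 4.69 and 3.40 CPM against 0.0339, 0.128 and 0.122 CPM (log2 difference -5.60 ± 0.44, SE, adjusted p = 2.39e-07), and Gabre (log2 difference -3.70 ± 0.63, SE, adjusted p = 2.04e-04). The chloride extruder Slc12a5, which makes GABA inhibitory, stood at 28.1, 16.7 and 20.8 CPM in MGE and 719, 759 and 714 CPM in hippocampus (log2 difference 5.06 ± 0.18, SE, adjusted p = 4.36e-09). The chloride importer Slc12a2 overlapped between tissues, at 85.5, 185 and 135 CPM in MGE and 87.3, 93.8 and 78.6 CPM in hippocampus (log2 difference -0.64 ± 0.27, SE, adjusted p = 0.0581). MGE WT 1 was its lowest MGE library, and without it the log2 difference was -0.88 with an adjusted p of 2.01e-04, and with limma-voom it was -0.58 with an adjusted p of 0.0294.

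Voltage-gated channels followed, with 28 of 32 higher in hippocampus, 2 higher in MGE and 2 that did not pass (median 3.76). Kcna1, a potassium channel of axons, stood at 0.201, 0.128 and 0.445 CPM in MGE and 206, 199.8 and 198 CPM in hippocampus (log2 difference 9.61 ± 0.19, SE, adjusted p = 4.70e-12). Cacna1e, a calcium channel, was read in both, at 16.6, 15.9 and 20.6 and 434, 497 and 449 CPM (log2 difference 4.70 ± 0.12, SE, adjusted p = 2.42e-11). Of the pacemaker channels, Hcn4 (log2 difference -2.73 ± 0.19, SE, adjusted p = 1.08e-07) and Hcn3 (log2 difference -0.69 ± 0.13, SE, adjusted p = 4.44e-04) were higher in MGE, whereas Hcn2, chosen after its values were seen, was higher in hippocampus at 5.95.

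Immediate early genes, switched on by synaptic activity, were higher in hippocampus for 15 of 18, with 3 higher in MGE (median 5.33). Egr1 stood at 1.53, 1.95 and 2.51 CPM in MGE and 155, 388 and 321 CPM in hippocampus (log2 difference 7.19 ± 0.46, SE, adjusted p = 5.81e-06). Arc, which acts in synaptic plasticity, stood at 5.15, 7.88 and 5.24 and 268, 506 and 397 CPM (log2 difference 6.01 ± 0.32, SE, adjusted p = 1.33e-06), and the growth factor Bdnf at 0, 0.128 and 0.0636 and 41.1, 55.5 and 65.0 CPM (log2 difference 9.75 ± 0.38, SE, adjusted p = 8.49e-09). Hippocampus WT 1 was the lowest of its group for all 3 genes, yet lay above every MGE library. Dusp1 (log2 difference -0.96 ± 0.09, SE, adjusted p = 1.21e-06) and Ier2 (log2 difference -0.86 ± 0.16, SE, adjusted p = 3.16e-04), which respond to stress and growth factors, were higher in MGE. Jund, the third of them (log2 difference -0.25 ± 0.09, SE, adjusted p = 0.0235), did not pass with RLE scaling, at -0.20 with an adjusted p of 0.0631, with DESeq2, at -0.21 with an adjusted p of 0.0532, or with any library other than MGE WT 1 left out.

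Genes of astrocytes were higher in hippocampus, although several were also read in MGE. Of 19 astrocyte genes, 18 were higher in hippocampus and 1, Fgfr3, did not pass (median 5.74), with summed levels of 626 ± 8.11 CPM (SD, n = 3) in MGE and 10752 ± 344 CPM in hippocampus. Gfap, the astrocyte filament, stood at 0.151, 0.383 and 0.191 CPM in MGE and 403, 468 and 524 CPM in hippocampus (log2 difference 10.93 ± 0.21, SE, adjusted p = 7.55e-12). S100b stood at 0.0502, 0.0638 and 0.127 and 77.7, 75.5 and 75.3 CPM (log2 difference 9.86 ± 0.17, SE, adjusted p = 3.12e-12). Slc1a2, the main glutamate transporter, stood at 32.4, 30.6 and 24.7 and 2279, 2505 and 2453 CPM (log2 difference 6.37 ± 0.13, SE, adjusted p = 5.66e-12), and Glul, which turns glutamate into glutamine, at 189, 179 and 180.1 and 1381, 1518 and 1566 CPM (log2 difference 3.02 ± 0.09, SE, adjusted p = 5.17e-11). Fgfr3, which radial glia also express, overlapped (log2 difference 0.27 ± 0.12, SE, adjusted p = 0.0694), and it passed without MGE WT 1, at 0.43 with an adjusted p of 0.00255, with RLE scaling, at 0.31 with an adjusted p of 0.0355, and with DESeq2 and limma-voom.

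Myelin genes were higher in hippocampus without exception, for 19 of 19 (median 7.0), and their summed level was 108 ± 5.55 CPM in MGE and 9037 ± 1133 CPM in hippocampus. Mbp, myelin basic protein, stood at 33.3, 41.5 and 35.8 CPM in MGE and 4025, 4268 and 3291 CPM in hippocampus (log2 difference 6.71 ± 0.15, SE, adjusted p = 9.01e-12). Aspa had no count in MGE and 14.9, 14.7 and 13.3 CPM in hippocampus, at least 161-fold higher against the floor of 3 counts per library. Hippocampus WT 3 was the lowest of its group for both genes. Oligodendrocyte precursor genes were split, with 9 of 12 higher in hippocampus and 3 higher in MGE (median 2.97). Sox10 stood at 2.64, 1.34 and 2.51 CPM in MGE and 76.0, 79.0 and 54.3 CPM in hippocampus (log2 difference 4.99 ± 0.24, SE, adjusted p = 7.98e-08). Neu4 had no count in MGE and 15.4, 17.5 and 15.98 CPM in hippocampus, at least 183-fold higher against that floor. Olig2, Ptprz1 and Vcan, which ventral progenitors share, were the 3 higher in MGE, and Vcan stood at 299, 355 and 318 CPM there against 25.5, 30.3 and 30.7 CPM (log2 difference -3.49 ± 0.11, SE, adjusted p = 8.34e-11).

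Microglia genes were higher in hippocampus for 17 of 18, with a smaller median of 2.42, and 1, Cd68, did not pass. Csf1r, the receptor on which microglia depend, stood at 13.9, 12.4 and 15.7 CPM in MGE and 119, 127 and 127 CPM in hippocampus (log2 difference 3.15 ± 0.10, SE, adjusted p = 9.46e-11). Tmem119, a marker of mature microglia, stood at 1.38, 2.27 and 1.56 and 26.2, 26.97 and 28.6 CPM (log2 difference 3.98 ± 0.17, SE, adjusted p = 1.54e-09). Endothelial genes had no common direction, with 8 of 18 higher in hippocampus, 4 higher in MGE and 6 that did not pass (median 0.19). Of all genes tested, 41.9% and 41.7% were higher in hippocampus and in MGE. Among them the growth receptor Kdr was higher in MGE, at 35.2, 27.7 and 34.1 CPM against 12.8, 12.6 and 13.7 CPM (log2 difference -1.31 ± 0.11, SE, adjusted p = 6.27e-07). The transporter Slco1a4 had 2 counts in MGE and 30.0, 26.9 and 25.6 CPM in hippocampus, and Ly6c1 rose from 0.327, 0.128 and 0.254 to 25.6, 26.0 and 24.2 CPM (log2 difference 6.68 ± 0.21, SE, adjusted p = 1.30e-10). Genes of meninges, pericytes and matrix were higher in hippocampus for 10 of 18 and higher in MGE for 3, with 5 that did not pass (median 0.52).

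**Figure D4:**
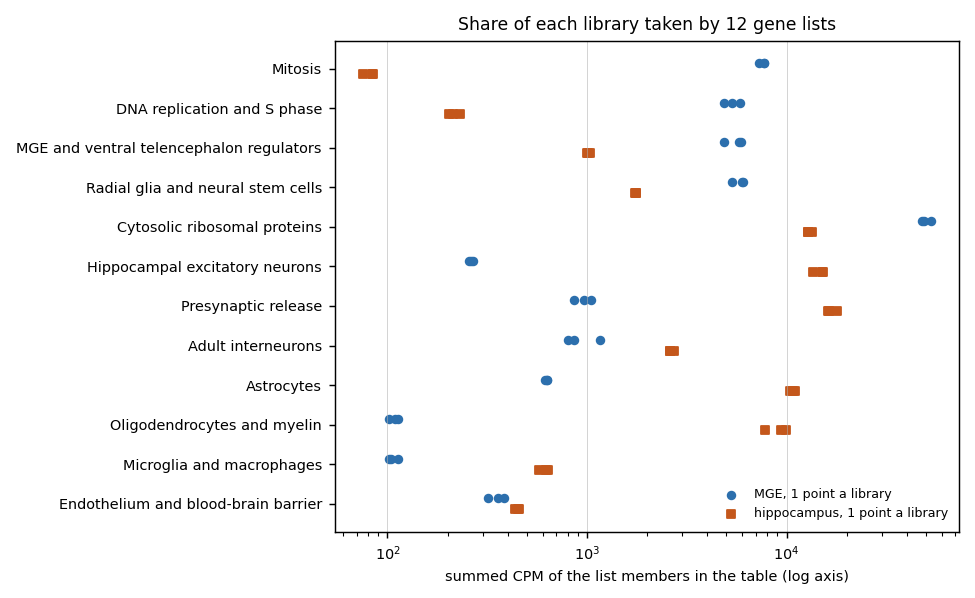
Summed CPM of the members in the table of 12 gene lists (horizontal axis, log scale) in each MGE library (circles) and hippocampus library (squares), which shows how much of each library a list takes and not the level of a single gene. The 3 libraries of a tissue lie close together beside the distance between tissues for most lists, and endothelial genes lie closest between tissues, at 352 ± 31.7 and 448 ± 10.6 CPM.

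Markers of neighbouring tissues and of blood were measured beside these results, and their part in them was not tested. Ttr, a choroid plexus transcript, stood at 0.678, 3.41 and 5.08 CPM in MGE and 4.47, 5.99 and 4.70 CPM in hippocampus (log2 difference 0.74 ± 0.59, SE, adjusted p = 0.276), and with limma-voom it passed, at 1.25 with an adjusted p of 0.0496. The E13.5 cortex libraries held 1412, 0.411 and 1099 CPM of it, so that cortex WT 2 was far below the other two. Of 11 choroid plexus genes tested out of 15, 7 were higher in hippocampus, 1 was higher in MGE and 3 did not pass, the summed levels ranging from 38.9 to 48.98 CPM in MGE and from 197 to 218 CPM in hippocampus. Striatal genes were higher in hippocampus for 7 of 11 and in MGE for 4, and thalamic genes for 7 and 3 of 10, beside 41.9% and 41.7% of all genes tested. Ebf1, of early striatal neurons, stood at 11.9, 45.3 and 35.0 CPM in MGE, so that MGE WT 1 held less of it than the other libraries. Embryonic globin transcripts were read in MGE: all 7 tested red cell genes were higher there. Hbb-bh1, 1 of the 7, had no count in hippocampus, at least 54.2-fold lower against the floor and 16.5-fold without MGE WT 1, and it did not pass without MGE WT 3 (adjusted p = 0.0516). The embryonic globin Hbb-y stood at 1007, 263 and 243 CPM in MGE and 0.745, 0.384 and 0.579 CPM in hippocampus (log2 difference -9.79 ± 1.09, SE, adjusted p = 6.31e-04). MGE WT 1 held about 4 times the Hbb-y level of the other MGE libraries. Of 14 red cell genes, the 6 adult globin symbols were listed at 0 in all 6 libraries, and Eno1, an enzyme that every cell uses, had at most 1 count in any library, so a level of 0 here can be a failed count for genes with near-identical copies.

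Chromatin regulators, the family to which Chd2 belongs, were mostly higher in MGE but by modest amounts. Of 30 genes of BAF and CHD remodellers, 22 were higher in MGE, 7 were higher in hippocampus and 1 did not pass (median -0.91). Chd2 itself, chosen as the gene of the study, stood at 152, 158 and 171 CPM in MGE and 72.7, 68.9 and 75.8 CPM in hippocampus (log2 difference -1.15 ± 0.08, SE, adjusted p = 7.90e-08), with groups that did not overlap. Actl6a, an actin-like BAF subunit of dividing cells, stood at 194, 162 and 164 and 12.4, 13.8 and 14.6 CPM (log2 difference -3.67 ± 0.10, SE, adjusted p = 5.43e-11), and the BAF subunit Smarce1 at 468, 475 and 479 and 48.9, 49.1 and 54.1 CPM (log2 difference -3.22 ± 0.08, SE, adjusted p = 2.13e-11). Chd5, a neuronal remodeller, was higher in hippocampus, at 317, 254 and 217 CPM against 35.5, 43.5 and 56.9 CPM (log2 difference 2.54 ± 0.20, SE, adjusted p = 5.71e-06). The ATPase Smarca2 was also higher there (log2 difference 1.91 ± 0.10, SE, adjusted p = 1.01e-08), while Smarca4 was higher in MGE (log2 difference -1.21 ± 0.09, SE, adjusted p = 1.63e-07).

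Histone, Polycomb and DNA methylation genes were higher in MGE for 24 of 32 and higher in hippocampus for 7, with 1 that did not pass (median -1.14). Ezh2, the Polycomb methyltransferase of dividing cells, stood at 298, 315 and 291 CPM in MGE and 4.30, 5.89 and 6.28 CPM in hippocampus (log2 difference -5.77 ± 0.13, SE, adjusted p = 1.20e-11). Cbx2, a Polycomb reader, stood at 116, 117 and 112 and 3.32, 3.91 and 3.90 CPM (log2 difference -4.95 ± 0.10, SE, adjusted p = 4.70e-12), whereas Cbx6, another reader, rose from 97.4, 111 and 91.8 to 525, 500.5 and 496 CPM (log2 difference 2.34 ± 0.09, SE, adjusted p = 5.07e-10). The replacement histone genes H3f3a and H3f3b were lower in hippocampus, at -3.18 and -3.02.

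Splicing regulators were evenly divided, with 11 of 22 higher in MGE, 10 higher in hippocampus and 1 that did not pass (median -0.22). This is near the split of all genes tested, of which 41.7% were higher in MGE and 41.9% in hippocampus. Ptbp1, the repressor of neuronal exons in progenitors, stood at 312, 311 and 288 CPM in MGE and 30.5, 35.1 and 30.4 CPM in hippocampus (log2 difference -3.25 ± 0.09, SE, adjusted p = 4.31e-11). Rbfox1 stood at 6.33, 14.6 and 16.8 and 493, 532 and 579 CPM (log2 difference 5.42 ± 0.37, SE, adjusted p = 7.49e-06) and Rbfox3, the NeuN antigen of mature neurons, at 9.39, 9.19 and 12.4 and 345, 382 and 383 CPM (log2 difference 5.17 ± 0.13, SE, adjusted p = 2.00e-11). Mbnl2 was also higher in hippocampus (log2 difference 2.78 ± 0.08, SE, adjusted p = 7.60e-11).

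Several families have a member listed here as embryonic and another listed as mature. The 20 such pairs were read as the share of the mature member in the CPM per kilobase of exon of both. Both members were tested in 17 pairs, and in 16 of them every hippocampus library lay above every MGE library. The mature member held over 50% in 16 pairs in hippocampus and in 4 in MGE. A higher share does not require that the members moved in opposite directions, and not all members followed their label. Listed as embryonic, Vamp1 and Scn3b had positive log2 differences, at 3.79 and 3.76. Listed as mature, Ptbp2 and Dnmt3a had negative ones, at -2.38 and -1.14. Ezh1 took 4.798, 4.56 and 5.69% of the pair with Ezh2 in the MGE libraries and 95.2, 93.1 and 93.0% in the hippocampus libraries. Fabp3 took 1.61, 1.54 and 1.53% and 84.5, 87.7 and 86.8% of the pair with Fabp7, the fatty acid binding protein of radial glia. In both pairs the embryonic member fell and the mature member rose, by log2 differences of -5.77 and 2.38 for the first and -4.80 and 3.83 for the second.

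The ion channel and receptor pairs moved in another way. Slc12a5 took 32.6, 11.7 and 18.4% of the pair with Slc12a2 in MGE and 92.4, 92.2 and 93.0% in hippocampus, through a rise of Slc12a5 with no call for Slc12a2. Grin2a took 13.1, 3.35 and 12.4% of the pair with Grin2b in MGE and 47.2, 51.6 and 54.4% in hippocampus, and both subunits were higher in hippocampus, at 8.47 and 5.26. The MGE shares of these pairs differed between the 3 MGE libraries more than the hippocampus shares did. Scn8a took 38.3, 35.2 and 33.8% and 88.0, 87.6 and 85.6% of the pair with Scn3a, whose own level was alike in both tissues (log2 difference 0.04 ± 0.09, SE, adjusted p = 0.711).

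The BAF subunit pairs differed among themselves. Actl6b took 16.1, 19.6 and 23.0% of the pair with Actl6a in MGE and 87.2, 85.9 and 85.9% in hippocampus. Dpf1 took 63.0, 64.01 and 68.4% and 70.0, 69.6 and 70.7% of the pair with Phf10, and Ss18l1 59.0, 61.1 and 61.9% and 77.5, 75.4 and 72.9% of the pair with Ss18. The first pair changed hands, while in the other two the neuronal subunit already held the larger share in the eminence. Vamp2 was the pair without a shift, at 94.7, 96.5 and 96.2% and 94.1, 94.8 and 94.9% of the pair with Vamp1.

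**Figure D5:**
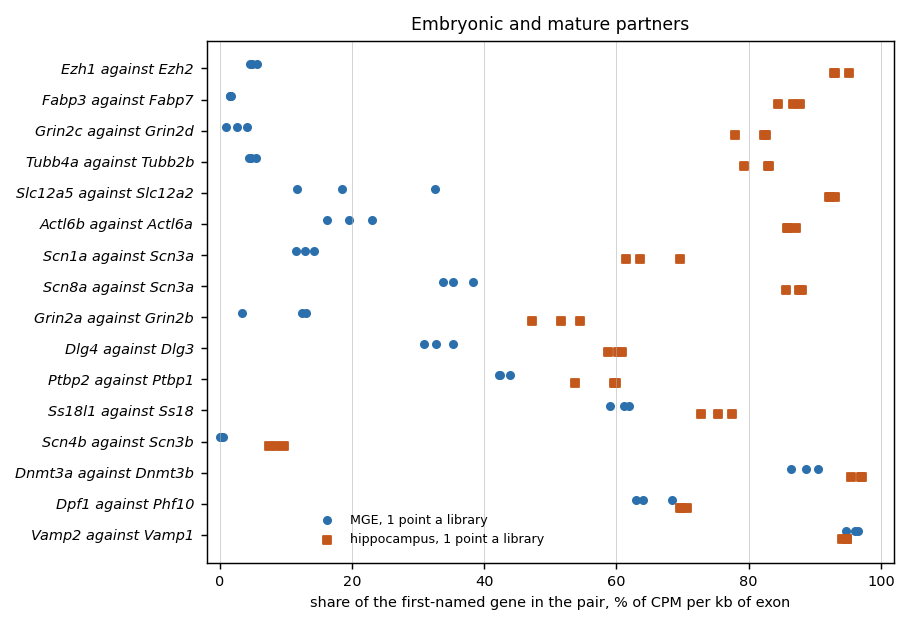
Share of the first-named, mature member of each of 16 pairs in the summed CPM per kilobase of exon of both (horizontal axis, percent), in MGE libraries (circles) and hippocampus libraries (squares), 1 point a library, ordered by the shift. At the top Ezh1 moves from a mean of 5.02 to 93.8%, and at the foot Vamp2 moves from 95.8 to 94.6%.

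Promoters and gene length differed between the 2 sides as a description. The ratio of observed to expected CpG over the 300 bases had a median of 0.621 for genes at least 2-fold higher in hippocampus (3379 promoters), 0.793 for genes at least 2-fold higher in MGE (2874) and 0.771 for the remaining genes tested (5177). A ratio over 0.6 was found in 52.4%, 76.8% and 74.0% of them. Genes at least 16-fold higher in hippocampus had a median of 0.516 and a share of 41.7%. Astrocyte promoters stood at a median of 0.336 (16 promoters), myelin promoters at 0.351 (13), mitosis promoters at 0.876 (24) and promoters of MGE regulators at 0.691 (23), beside 0.744 over all genes tested. The stretch before the start is shown for an MGE regulator and for 2 astrocyte genes, with CG in capitals, since these letters are what the ratio counts. They were chosen after their ratios were seen, which are 0.898 for Dlx2, 0.129 for Gfap and 0.145 for S100b over the whole 300 bases.
Dlx2, GRCm38.p6 chr2:71546755-71546904, minus strand: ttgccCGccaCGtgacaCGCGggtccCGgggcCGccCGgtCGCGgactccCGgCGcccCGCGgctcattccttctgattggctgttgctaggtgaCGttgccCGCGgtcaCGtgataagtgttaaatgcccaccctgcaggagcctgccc
Gfap, GRCm38.p6 chr11:102897201-102897350, minus strand: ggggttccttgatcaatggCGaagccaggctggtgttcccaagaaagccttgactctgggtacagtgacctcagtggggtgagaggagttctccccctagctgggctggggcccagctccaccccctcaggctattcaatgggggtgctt
S100b, GRCm38.p6 chr10:76253686-76253835, plus strand: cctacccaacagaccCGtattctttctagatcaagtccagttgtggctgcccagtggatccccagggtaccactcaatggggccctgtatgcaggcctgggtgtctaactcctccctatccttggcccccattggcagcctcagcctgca

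The printed stretch of Dlx2 holds 17 CG dinucleotides, and those of Gfap and S100b hold 1 each. Dlx2 is not typical of the regulators read, as Nkx2-1 has a ratio of 0.559, Lhx6 of 0.579 and Lhx8 of 0.241. Genes at least 2-fold higher in hippocampus also spanned more of the genome, with a median of 30.2 kb (quartiles 11.2 and 90.6 kb) against 21.1 kb (8.94 and 47.4 kb) for those at least 2-fold higher in MGE and 22.9 kb for the rest. The exon lengths were alike, at medians of 4.42, 4.25 and 4.42 kb. Presynaptic release genes had a median span of 54.4 kb, and mitosis genes 20.2 kb.

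The same comparison in HET tissue shares no library with the WT comparison. Chd2 stood at 152.6, 159 and 172 CPM in WT MGE and at 134, 134 and 141 CPM in HET MGE, and at 73.1, 69.6 and 76.5 CPM in hippocampus of WT and 63.3, 66.0 and 64.5 CPM in that of HET, so that every HET library lay below every WT library of its tissue. Of 15476 genes tested in HET, 6487 (41.9%) were higher in hippocampus and 6473 (41.8%) higher in MGE. Called higher in hippocampus in both genotypes were 5985 genes, 92.7% of the WT calls and 92.3% of the HET calls. Called higher in MGE in both were 6000 genes, 93.5% of the WT calls and 92.7% of the HET calls. Of 8397 genes at least 2-fold apart in WT and tested in HET, 8386 had the same direction and 8246 were also called. Across 15240 genes the log2 differences of the genotypes correlated at 0.977, where the points are genes and not replicates. Lhx6 had a log2 difference of -4.98 ± 0.15 (SE, adjusted p = 1.60e-09) and Camk2a of 6.83 ± 0.15 (SE, adjusted p = 3.51e-10) in HET.

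A direct test of whether the tissue difference depended on genotype called 7 of 15873 genes (0.0441%). Xist, Kdm6a and Slitrk2, 3 of the 7, lie on the X chromosome. The HET MGE libraries also differed from the other 9 libraries of this test in sex-linked genes. Xist was at 0.481 to 1.05 CPM there against 516 to 1900.0 CPM in the rest. Summed Y-linked genes stood at 206 to 255 CPM there against at most 0.102 CPM in the rest. These are the marks of male tissue in HET MGE and of female tissue in the other 9 libraries. Genotype and sex therefore cannot be told apart on the MGE side. Tmem163, a zinc transporter of vesicles, stood at 1.82, 0.833 and 1.91 CPM in WT MGE, 1.92, 1.96 and 1.13 CPM in HET MGE, 102.3, 124 and 108 CPM in hippocampus of WT and 13.2, 10.9 and 11.4 CPM in that of HET. The difference lay between the hippocampus groups, and the interaction was -3.35 ± 0.33 (SE, adjusted p = 9.59e-04). Fabp7 stood at 302, 245 and 281 CPM in WT MGE, 184, 251 and 183 CPM in HET MGE, 11.1, 9.32 and 9.42 CPM in hippocampus of WT and 24.4, 26.9 and 27.9 CPM in that of HET (1.83 ± 0.18, SE, adjusted p = 5.45e-04). The number of genes called was sensitive to single libraries, at 52 without MGE WT 1, 235 without MGE HET 2, and 4 without MGE HET 3, without any 1 of the WT hippocampus libraries, or without HET hippocampus 1 or 3. Eno1b, described above, had 3062 counts in MGE HET 2 and 33 and 23 in MGE HET 1 and 3. High counts of it were not confined to MGE WT 1 and MGE HET 2. Cortex WT 1 had 4530 counts, and cortex HET 1, 2 and 3 had 5133, 4585 and 5228, against 58 and 47 in cortex WT 2 and 3. A link between Eno1b and the number of genes called was not tested.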

How the data were processed

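The deposited table gives whole-number counts for each gene symbol, not normalized, as library totals that differ show. Per the submitters' processing notes, the build was mm10 and the tools were TopHat2 2.1.1, Trimmomatic, FastQC, SAMtools and DESeq2. Which program counted reads, on which annotation and with what use of strand is not given in the sources used here, so reads of overlapping antisense genes cannot be told apart. Symbols turned into calendar dates (27 lines) were kept in the totals and not named.

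Counts were tested with edgeR 4.0.16 in R 4.3.3 (filterByExpr, minimum count 10 and minimum total 15, TMM scaling, robust quasi-likelihood F test, Benjamini-Hochberg adjusted p under 0.05). The standard error is the absolute log2 difference divided by the square root of F. The WT hippocampus to MGE fit used 6 libraries, the MGE to cortex contrast the 9 WT libraries, the HET contrast 6 libraries and the interaction 12. DESeq2 1.42.0 and limma 3.58.1 (voom) served as alternatives, with the settings of the closing section, and the procedure was tested on simulated data. Symbols were placed with GENCODE M21 (22724) or RefSeq (227), and 1109 were not placed.

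The members and gene lists were chosen with earlier results of these data known. Named genes are Lhx6 and Camk2a, the 10 largest differences each way at a mean log2 CPM of at least 5 with groups that do not overlap (sex-linked genes, date-like symbols and predicted names left out), up to 3 members of each list by size of difference, by level, and against the list's direction, the pair members, up to 10 genes of the MGE to cortex contrast, and up to 5 of the interaction. Others, and exceptions to a count, were named after their values were seen.

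Libraries with the same replicate number did not deviate together (correlations of -0.021, 0.015 and -0.0058), so the numbers were not used as pairs. The variance between pairs of replicates was 6.85 to 27.8 times that of counting noise (chi-square per degree of freedom). Some members of the lists and pairs enter the counts and are not reported here by name.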

Additional observations from a re-analysis of the deposited data

Results flagged for a closer look

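The hippocampus to MGE difference itself differed between WT and HET for 7 genes in a test of the interaction (edgeR quasi-likelihood test with Benjamini-Hochberg adjustment, 3 libraries in each of 4 groups). Each interaction is the log2 difference in HET minus that in WT. Xist had an interaction of 11.27 (adjusted p = 3.82e-13), with means of 1775 CPM in WT MGE, 0.779 in HET MGE, 571 in WT hippocampus and 621 in HET hippocampus. Kdm6a had an interaction of 0.82 (adjusted p = 0.00170), with 81.9, 85.3 and 81.5 CPM in WT MGE and 48.9, 51.7 and 48.9 CPM in HET MGE. Slitrk2, also on the X chromosome, had 0.86 (adjusted p = 0.0267), with means of 15.4, 11.02, 27.7 and 36.2 CPM in the groups in the order above.

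The other 4 genes lie on autosomes. Tmem163 had an interaction of -3.35 and Fabp7 of 1.83. Arntl, a clock transcription factor, had 1.02 (adjusted p = 0.0216), and stood at 26.5, 28.3 and 26.7 CPM in hippocampus of WT and 46.6, 45.1 and 46.7 CPM in that of HET. Kirrel2, an adhesion protein, had -1.43 (adjusted p = 0.0267), and stood at 12.2, 12.2 and 12.5 CPM in hippocampus of WT and 5.68, 6.26 and 5.50 CPM in that of HET. By these markers the HET MGE libraries were male and the other libraries of this test female. The part of sex in these values was not tested, and on the MGE side it cannot be told apart from genotype. In a fit of autosomal genes alone, chosen after seeing the data, Tmem163, Fabp7 and Arntl were called. With all genes, Arntl was not called without MGE HET 3 or without any 1 of the 6 hippocampus libraries. Slitrk2 and Kirrel2 were not called in those fits either, nor without MGE WT 2 or MGE HET 1.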

How the results depend on the processing

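The count of 12878 genes that differ between WT hippocampus and WT MGE ranged from 12695 to 13434 under DESeq2, limma-voom, scaling by RLE or the upper quartile, tests of unfiltered genes, fits of 9 or 18 libraries and the replicate block (12695 genes), and from 12374 to 12868 with 1 library left out. A test against a 2-fold difference called 7338. The 8493 genes at least 2-fold apart ranged from 8456 to 9143 and, with 1 library left out, from 8482 to 8686. The MGE to cortex count (7905) and the HET count (12960) stayed within 1.5 times of these values in every alternative run. With the replicate block they were 7801 and 12809. The 7 interaction genes became 98 with DESeq2, 3 with autosomal genes alone (chosen after seeing the data) and 5 with the replicate block, and ranged from 4 to 235 with 1 library left out. Slitrk2 and Kirrel2 were not called under the replicate block. They were also not called without MGE WT 2, MGE HET 1 or MGE HET 3, or without any 1 of the 6 hippocampus libraries. The replicate numbers pair no samples here, and 1 of 6 libraries correlated best with its own number.

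Of 1405 values of 281 named genes and pair members under other settings, 1394 kept their direction and side of the threshold, 4 lost the call and 7 gained it. With 1 library left out, 1656 of 1686 kept both, 17 lost the call, 6 gained it and 7 changed sign. Leaving out each library in turn gave Aqp1 -0.18 to 0.44, Npy -0.41 to 0.34, Nxph1 -0.56 to 0.049 and Sall4 -0.98 to 0.15. The sign changes were Aqp1 without MGE WT 1 (-0.047) and without hippocampus WT 2 (-0.18), Npy (0.34) and Nxph1 (0.049) without MGE WT 3, Sall4 without MGE WT 1 (0.075) and hippocampus WT 3 (0.15), and Scn3a without hippocampus WT 3 (-0.032). Cdk5r1 and Jund lost their calls with RLE scaling and with DESeq2, and each in 5 of the 6 fits with 1 library left out. Bcl11b and Grin3b lost theirs in 3 such fits each and Hbb-bh1 in 1. Fgfr3 and Slc12a2 passed with the replicate block (0.28 with an adjusted p of 0.0333 and -0.58 with an adjusted p of 0.0316). Scaling by RLE or the upper quartile moved the median of all genes from -0.0018 to at most 0.044. These scalings also set the bulk of genes near no difference, so they cannot test that choice. Of 85 list medians recomputed, 79 moved by less than the spread between libraries. At these depths a gene that stayed under about 10 counts a library in both tissues was not tested. A gene with no count in 1 tissue could still be tested.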
